A study of Mus musculus with 22 samples.

Results

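The genes described here are those of the lysosome's digestive enzymes, its membrane and cholesterol-handling proteins, the proton pump that acidifies it and the transcription factor Tfeb, measured in white fat of bone marrow chimeric mice. They were chosen by gene symbol from a list of 42 names, and 39 of them, each with 1 probe set, were found among the 19337 named genes of the array. Ctsd, Glb1 and Atp6v0c were not analysed here. By role, the 39 were 8 cysteine cathepsins, 2 other proteases, 6 glycosidases, 4 lipid and acyl hydrolases, 6 membrane and cholesterol proteins, 4 subunits of the membrane-bound V0 part of the pump, 8 subunits of its cytosolic V1 part, and Tfeb. Nceh1, counted with the lipid hydrolases and among the lysosomal genes throughout, encodes an enzyme of the endoplasmic reticulum.

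Male C57BL/6J mice received bone marrow, had 6 weeks for it to reconstitute and then ate a diet with 60% of calories from fat for 14 weeks. The marrow was Gipr-/-S100a9-/- (double knockout), Gipr-/- or wild type (WT). Gipr encodes the receptor of the incretin hormone GIP, and S100a9 encodes a calcium-binding protein abundant in neutrophils and monocytes. Recipients were WT for the Gipr-/- and WT marrow, and the sources used here do not state the recipient of the double knockout marrow. Inguinal subcutaneous fat (ingWAT) gave 3 arrays with double knockout, 3 with Gipr-/- and 4 with WT marrow. Epididymal fat (epiWAT) gave 4 arrays with each kind of marrow. In such chimeras the donor's deletions are carried by blood-derived cells, while adipocytes and other resident cells keep the recipient's genotype. Whether every array comes from a mouse of its own is not stated, and the tests therefore rest on the spread among these arrays, part of which may be technical.

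Lysosomes are acidic organelles in which proteases, glycosidases and lipases break down what a cell takes up or recycles. The vacuolar ATPase (V-ATPase) keeps them acidic: its V1 part splits ATP and turns a rotor, and its V0 part carries protons across the membrane. Many lysosomal genes carry a short palindromic promoter motif bound by TFEB and related factors of the MiT/TFE family. In fat of obese animals, macrophages that gather around dying adipocytes are rich in lysosomes.

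Promoter sequences are shown first, since this motif was more frequent among the described genes than in the whole table. RefSeq promoters of build GRCm38.p6 were held for 31 of the 39 genes. They run from 250 bases before to 50 bases after the start used for each window. For some genes, Ctsa and Ctsl among them, that start lies inside the annotated span of the gene. The core CACGTG, which reads the same on both strands, stood in 13 of the 31 (41.9%), against 8.09% of the 27025 genes in the table. The longer TCACGTGA, also the same on both strands and containing the core, stood in 6 of the 31 (19.4%), against 1.12% of all genes. A match describes these letters only and does not show that a factor binds. The 6 genes with the longer motif are given as windows of 28 bases, read along the gene's strand, with the motif in capitals. Ctsa (chr2:164833750-164833777 and chr2:164833767-164833794, plus strand) and Gla (chrX:134601216-134601243 and chrX:134601183-134601210, minus strand) held it at 2 places each. The others lay at chr8:3500463-3500490 (Mcoln1, plus), chr8:105566051-105566078 (Atp6v0d1, minus), chr16:44139374-44139401 (Atp6v1a, minus) and chr17:26676388-26676415 (Atp6v0e, plus).
Ctsa, first: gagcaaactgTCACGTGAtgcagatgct
Ctsa, second: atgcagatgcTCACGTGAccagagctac
Gla, first: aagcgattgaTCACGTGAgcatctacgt
Gla, second: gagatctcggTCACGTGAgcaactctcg
Mcoln1: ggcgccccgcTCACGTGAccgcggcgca
Atp6v0d1: cctactgcggTCACGTGAgacgcggtgc
Atp6v1a: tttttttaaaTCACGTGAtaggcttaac
Atp6v0e: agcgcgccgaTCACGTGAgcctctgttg

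In ingWAT 5 genes passed the test as lower with double knockout than with Gipr-/- marrow (described further on). Of these Atp6v0d1 and Ctsl held the core, Lamp2 and Atp6v0a1 did not, and Atp6v1b2 had no entry in the table. The Atp6v0d1 promoter (chr8:105566015-105566314, minus strand) and the Ctsl promoter (chr13:64370471-64370770, minus strand) are given whole, with the core in capitals. Counted from the start used for the window, the core begins 3 bases before it in Atp6v0d1 and 236 bases before it in Ctsl. The whole Ctsl window lies inside the gene's annotated span (chr13:64361890-64370772), so there the core lies within the annotated gene.
Atp6v0d1: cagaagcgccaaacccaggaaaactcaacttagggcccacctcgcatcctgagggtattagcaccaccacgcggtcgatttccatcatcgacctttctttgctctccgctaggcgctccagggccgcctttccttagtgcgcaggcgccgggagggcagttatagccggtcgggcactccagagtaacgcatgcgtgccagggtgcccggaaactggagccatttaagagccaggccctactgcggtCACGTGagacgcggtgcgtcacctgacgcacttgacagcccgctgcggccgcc
Ctsl: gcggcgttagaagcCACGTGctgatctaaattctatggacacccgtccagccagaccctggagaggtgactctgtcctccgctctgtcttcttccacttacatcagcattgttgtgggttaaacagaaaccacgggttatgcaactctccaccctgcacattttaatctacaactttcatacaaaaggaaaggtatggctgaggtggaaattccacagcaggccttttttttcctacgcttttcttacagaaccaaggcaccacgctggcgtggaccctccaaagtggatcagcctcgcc

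The values were taken as log2 intensities, so a difference of 1 is a 2-fold difference. Probe sets differ in brightness for reasons other than RNA amount, so levels are compared between groups of arrays and not between genes. Within groups, the median SD of the 39 genes was 0.36 in ingWAT and 0.38 in epiWAT, against 0.42 and 0.45 for all genes tested. All 39 passed the filter that left out the 25% of genes with the lowest mean, which left 14503 genes to test in each fit. Whole fat pads were measured, so fewer cells of a type and less RNA per cell cannot be told apart. Gipr lay between 4.02 and 6.10 and S100a9 between 4.56 and 6.98 in the 22 arrays, with no call in any comparison. Where their probes lie relative to the deleted stretches is not stated, so these values check nothing about the labels.

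Several arrays stood apart by markers of other cell types. In ingWAT, double knockout arrays 1 and 3 had mean log2 values of 10.51 and 10.41 over the 5 B cell markers measured, against 4.26 in double knockout array 2, 4.25 to 4.58 with Gipr-/- marrow and 4.20 to 4.71 with WT marrow. The 5 T cell markers reached 11.02 in the ingWAT double knockout group and at most 5.82 and 6.15 in the ingWAT Gipr-/- and WT groups. Skeletal muscle markers were spread widely in ingWAT, from 7.39 to 14.41 with double knockout, 7.53 to 10.89 with Gipr-/- and 6.05 to 16.84 with WT marrow. In epiWAT, double knockout array 1 had the highest mean over the 5 epididymis markers, 10.03, against at most 4.75 with Gipr-/- and 7.54 with WT marrow. The 8 testis germ cell markers averaged 13.79 in epiWAT Gipr-/- array 1 and 9.43 in WT array 2. They averaged 4.11 to 8.09 in epiWAT with double knockout marrow, and at most 4.77 in ingWAT. The adipocyte markers lay between 16.01 and 17.99 in all 22 arrays. The lowest was an epiWAT double knockout array, and no array of any other group was below 16.99. The part of this low array in the epiWAT differences was not tested. Counts without the arrays high in B and T cell markers stand beside the results they touch, and the plot of gene lists by array shows them side by side. Without epiWAT double knockout array 1, Gipr-/- array 1 and WT array 2 together, 0 of the 39 genes passed between marrows in epiWAT, as with all arrays. Counts between depots without those epiWAT arrays are given in the last section where they moved.

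**Figure D1:**
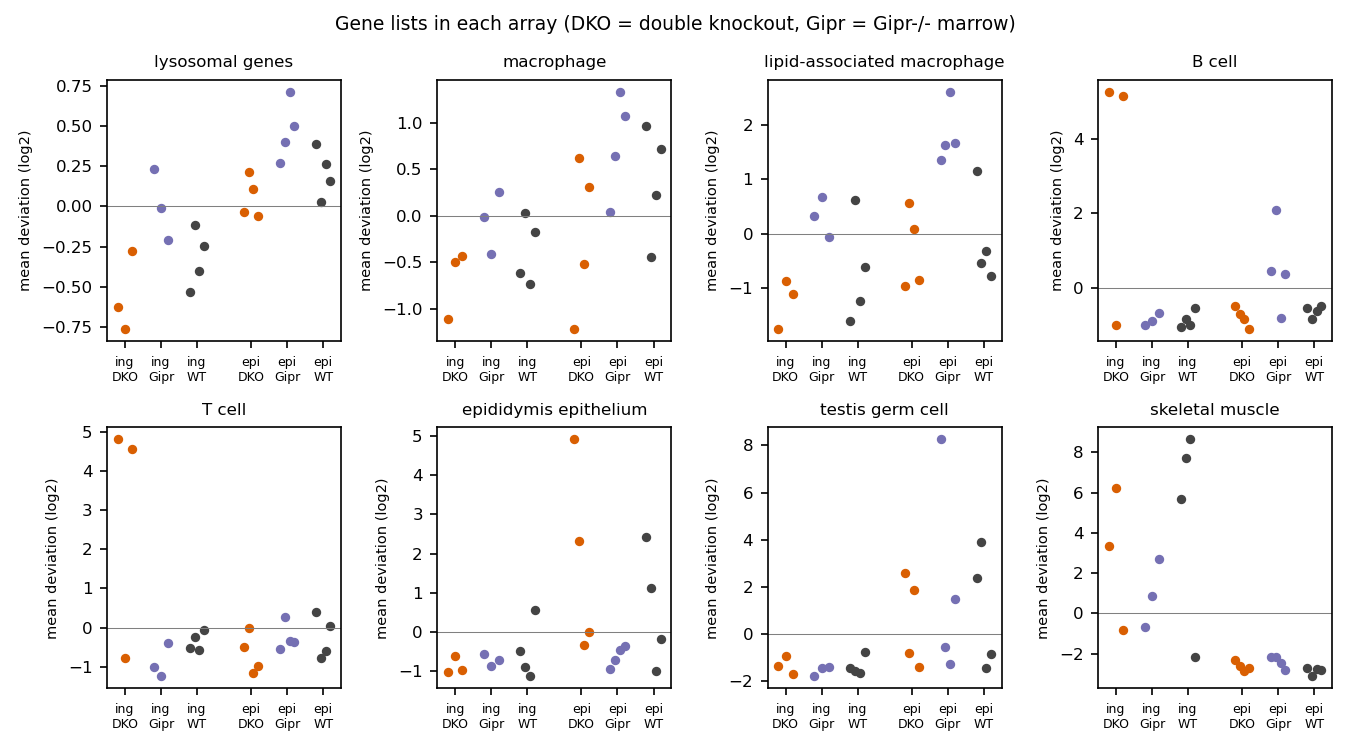
Mean deviation (log2) of 8 gene lists from each gene's mean over the 22 arrays, 1 point per array, by depot (ing, epi) and marrow. The 39 lysosomal genes were lowest in ingWAT with double knockout and highest in epiWAT with Gipr-/- marrow, and B and T cell markers were high in 2 of the 3 ingWAT double knockout arrays.

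Across the 22 arrays the lysosomal genes were lowest in ingWAT with double knockout marrow and highest in epiWAT with Gipr-/- marrow. Taking each gene's deviation from its mean over all arrays, the average over the 39 genes was -0.56 ± 0.25 with double knockout, 0.00 ± 0.22 with Gipr-/- and -0.33 ± 0.18 with WT marrow in ingWAT (mean ± SD over arrays, n = 3, 3 and 4). In epiWAT it was 0.06 ± 0.13 with double knockout, 0.47 ± 0.19 with Gipr-/- and 0.21 ± 0.15 with WT marrow (n = 4 each). By the median over the 39 genes, ingWAT double knockout arrays 2 and 1 were the lowest of the 22 and epiWAT Gipr-/- arrays 3, 4 and 2 the highest. In each depot the Gipr-/- group had the highest average of the 3 groups. In neither depot did this average overlap between the double knockout and Gipr-/- arrays, but by the median epiWAT double knockout array 2 (0.34) lay above Gipr-/- array 1 (0.25).

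**Figure D2:**
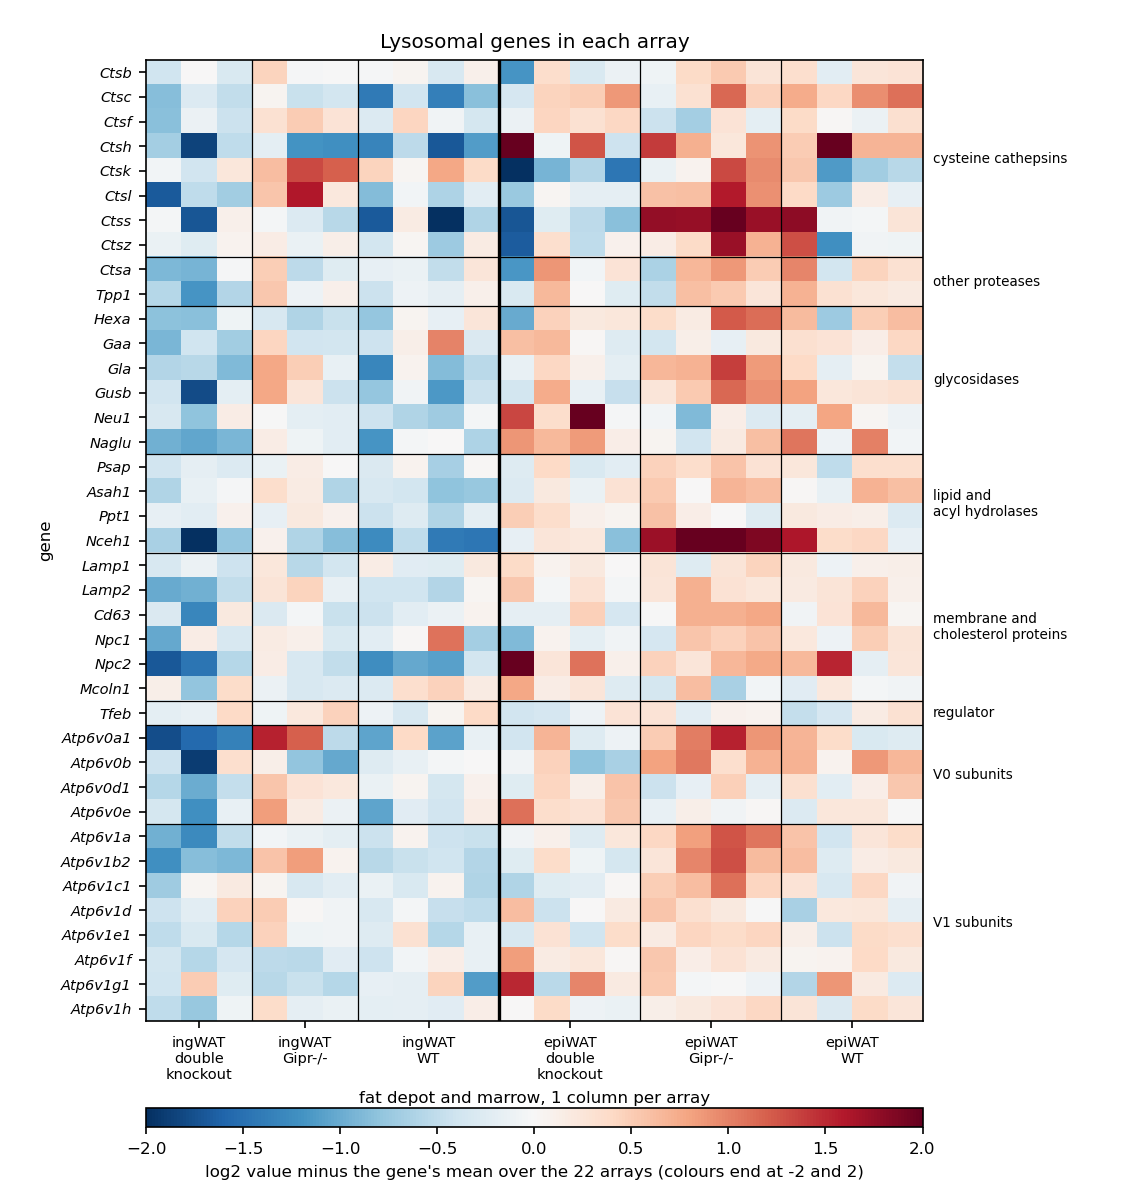
Log2 value of each of the 39 genes in each of the 22 arrays, as the difference from the gene's mean over all arrays, with genes ordered by role and arrays by depot and marrow. Blue (low) dominates the ingWAT double knockout columns, and red (high) the epiWAT Gipr-/- columns, most deeply for Ctss and Nceh1.

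In ingWAT, 5 of the 39 lysosomal genes were lower with double knockout than with Gipr-/- marrow after adjustment over all 14503 genes, and 0 were higher (limma, adjusted p under 0.05). They were the pump subunits Atp6v1b2, Atp6v0a1 and Atp6v0d1, the protease Ctsl and the membrane protein Lamp2. That is 12.8% of the 39 genes, against 3.48% of all genes called in either direction and 2.65% called lower. By direction alone 36 of 39 were lower with double knockout marrow, against 52.1% of all genes, and the median log2 difference was -0.38 over the 39 and -0.03 over all genes. At an unadjusted p under 0.05, 13 were lower and 0 higher, against 11.9% and 7.07% of all genes. The arrays of the 2 groups did not overlap for 16 genes that were lower (background 13.9%) and 1 that was higher (8.35%), Atp6v1g1.

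Of the V0 part, all 4 subunits measured were lower on average with double knockout marrow, and 2 of the 4 passed the test. Atp6v0a1 encodes the large membrane subunit a, which forms the proton half-channels. Atp6v0a1 in ingWAT had log2 values of 12.93, 13.15 and 13.35 in double knockout arrays, 16.25, 15.89 and 14.18 in Gipr-/- arrays, and 13.66, 15.11, 13.63 and 14.56 in WT arrays. All 3 double knockout arrays were lower than every other ingWAT array, and Gipr-/- array 3 lay well below the other Gipr-/- arrays. The difference from the Gipr-/- group was -2.30 ± 0.51 (SE), with an adjusted p of 0.0334. Atp6v0d1 encodes subunit d, which couples the V0 ring to the rotor of V1. Atp6v0d1 in ingWAT had 11.59, 11.16 and 11.68 in double knockout arrays, 12.71, 12.43 and 12.36 in Gipr-/- arrays, and 12.02, 12.22, 11.80 and 12.24 in WT arrays. Again the 3 double knockout arrays were below all 7 others, and the Gipr-/- arrays were above all WT arrays. Its difference was -1.02 ± 0.23, with an adjusted p of 0.0358. The other 2 subunits did not pass. Atp6v0e, a small membrane subunit, had 10.97, 10.10 and 11.17 in double knockout arrays, 12.16, 11.48 and 11.20 in Gipr-/- arrays, and 10.28, 11.09, 10.94 and 11.48 in WT arrays. Atp6v0b, a proteolipid of the rotating ring, had 7.52, 6.03 and 8.27 in double knockout arrays, 8.05, 7.15 and 6.91 in Gipr-/- arrays, and 7.67, 7.79, 7.90 and 7.94 in WT arrays. For Atp6v0e the double knockout and Gipr-/- arrays did not overlap, while for Atp6v0b all 3 groups overlapped.

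Of the V1 part, 6 of 8 subunits were lower on average and 1 passed, Atp6v1b2. It encodes the B subunit of the ATP-splitting head in most tissues. Atp6v1b2 in ingWAT had 9.94, 10.32 and 10.27 in double knockout arrays, 11.73, 12.002 and 11.24 in Gipr-/- arrays, and 10.62, 10.72, 10.76 and 10.58 in WT arrays. The 3 groups separated completely, with double knockout lowest, WT between and Gipr-/- highest. Its difference between double knockout and Gipr-/- marrow was -1.48 ± 0.25, with an adjusted p of 0.0108. Atp6v1a, the catalytic A subunit, had 8.45, 8.13 and 8.92 in double knockout arrays, 9.36, 9.29 and 9.22 in Gipr-/- arrays, and 8.98, 9.49, 8.998 and 8.97 in WT arrays in ingWAT. Its double knockout arrays were all below the rest, and its difference of -0.79 ± 0.28 did not pass (adjusted p 0.139). Atp6v1c1, which joins V1 to V0 and takes part in their reversible assembly, had 10.002, 10.75 and 10.90 in double knockout arrays, 10.77, 10.38 and 10.50 in Gipr-/- arrays, and 10.57, 10.41, 10.78 and 10.11 in WT arrays in ingWAT, with overlapping groups. The remaining V1 subunits, Atp6v1d, Atp6v1e1, Atp6v1f, Atp6v1g1 and Atp6v1h, differed by -0.56 to 0.49, and none passed.

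Among the proteases, Ctsl alone passed. It encodes cathepsin L, an endopeptidase of the lysosome. Ctsl in ingWAT had 12.37, 13.54 and 13.35 in double knockout arrays, 14.61, 15.66 and 14.27 in Gipr-/- arrays, and 13.19, 14.003, 13.43 and 13.84 in WT arrays. The double knockout and Gipr-/- arrays did not overlap, with double knockout array 1 the lowest and Gipr-/- array 2 the highest. The difference was -1.75 ± 0.40, with an adjusted p of 0.0358. Tpp1, which removes tripeptides and is lost in a childhood neuronal storage disease, had 14.20, 13.58 and 14.18 in double knockout arrays, 15.30, 14.67 and 14.87 in Gipr-/- arrays, and 14.35, 14.67, 14.60 and 14.88 in WT arrays. Ctsk, a collagen-degrading cathepsin, had 8.68, 8.36 and 8.97 in double knockout arrays, 9.35, 10.06 and 9.93 in Gipr-/- arrays, and 9.18, 8.77, 9.50 and 9.12 in WT arrays. In both, every double knockout array was below every Gipr-/- array, and neither passed (adjusted p 0.0598 for Tpp1 and 0.0619 for Ctsk). Ctsf, a less studied endopeptidase, had 7.71, 8.41 and 8.10 in double knockout arrays, 8.84, 9.04 and 8.81 in Gipr-/- arrays, and 8.26, 8.97, 8.46 and 8.18 in WT arrays, again with no overlap between double knockout and Gipr-/- marrow. Ctsb, cathepsin B, had 17.93, 18.34 and 18.02 in double knockout arrays, 18.78, 18.31 and 18.32 in Gipr-/- arrays, and 18.31, 18.38, 18.01 and 18.43 in WT arrays. Ctss, the cathepsin that trims the invariant chain of MHC class II, had 11.94, 10.26 and 12.08 in double knockout arrays, 11.95, 11.70 and 11.42 in Gipr-/- arrays, and 10.30, 12.14, 9.97 and 11.38 in WT arrays. For both, double knockout and Gipr-/- arrays overlapped. The other proteases Ctsa and Ctsz, both carboxypeptidases, and Ctsc and Ctsh differed by -0.53 to -0.14, and none passed.

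Among the membrane and cholesterol proteins, 5 of 6 were lower on average, and Lamp2 alone passed. It encodes a heavily glycosylated protein that lines the lysosomal membrane and is needed for chaperone-mediated autophagy and for fusion with autophagosomes. Lamp2 in ingWAT had 16.05, 16.09 and 16.57 in double knockout arrays, 17.31, 17.51 and 16.90 in Gipr-/- arrays, and 16.66, 16.66, 16.48 and 17.09 in WT arrays. The double knockout arrays were all below the Gipr-/- arrays, and array 3 of the double knockout group reached into the WT range. The difference was -1.003 ± 0.24, with an adjusted p of 0.0455. Its close relative Lamp1 had 14.99, 15.20 and 14.91 in double knockout arrays, 15.55, 14.76 and 14.96 in Gipr-/- arrays, and 15.47, 15.10, 15.08 and 15.51 in WT arrays, with a difference of -0.05 ± 0.24 and overlapping groups. Npc2, the soluble carrier that hands cholesterol to Npc1, had 10.96, 11.19 and 12.08 in double knockout arrays, 12.79, 12.34 and 12.16 in Gipr-/- arrays, and 11.41, 11.63, 11.57 and 12.28 in WT arrays, a difference of -1.02 ± 0.33 that did not pass (adjusted p 0.117). The glycosidases Gla and Naglu, which act on globotriaosylceramide and heparan sulfate, did not pass either. Gla had 7.13, 7.15 and 6.82 in double knockout arrays, 8.48, 8.20 and 7.55 in Gipr-/- arrays, and 6.39, 7.78, 6.83 and 7.16 in WT arrays. Naglu had 7.41, 7.33 and 7.46 in double knockout arrays, 8.52, 8.28 and 8.16 in Gipr-/- arrays, and 7.19, 8.33, 8.37 and 7.75 in WT arrays. For both genes the double knockout and Gipr-/- arrays did not overlap, and the differences of -1.04 ± 0.38 and -0.92 ± 0.33 did not pass. The other glycosidases Hexa, Gaa, Gusb and Neu1 differed by -0.98 to -0.12. The lipid and acyl hydrolases Psap (the precursor of the saposins), Asah1 (acid ceramidase), Ppt1 and Nceh1 differed by -0.999 to -0.13, and Npc1, the calcium channel Mcoln1 and the tetraspanin Cd63 by -0.38 to 0.13, with 0 past the threshold.

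Most macrophage markers were also lower by direction with double knockout than with Gipr-/- marrow in ingWAT. Over the 12 macrophage markers measured, the mean log2 value was 9.65 to 10.33 with double knockout, 10.36 to 11.02 with Gipr-/- and 10.03 to 10.80 with WT marrow in ingWAT. Of the 12, Mrc1 (-1.68 ± 0.29) and Mertk (-1.76 ± 0.36), receptors for sugars and for apoptotic cells, passed the test, both lower with double knockout marrow. By direction 11 of the 12 were lower, and Ptprc, which all leukocytes carry, was higher at 3.04 ± 0.91 (adjusted p 0.0898). The summed linear level of the 12 was 28172 to 80794 with double knockout, 33555 to 47286 with Gipr-/- and 23893 to 33648 with WT marrow, so that it overlapped between the groups where the mean log2 value did not overlap between double knockout and Gipr-/- marrow. Over 7 of the 8 markers of lipid-associated macrophages, 1 of which is itself a pump subunit (Atp6v0d2), the mean was 7.17 to 8.06 with double knockout, 8.85 to 9.59 with Gipr-/- and 7.32 to 9.53 with WT marrow. Of these 7, Lgals3 (-2.28 ± 0.48) and Atp6v0d2 passed, both lower. The part of these markers in the result was not tested.

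The number of calls rested on few arrays. Leaving out 1 array at a time gave 0 calls without Gipr-/- array 2 or double knockout array 1, 1 without Gipr-/- array 1 or double knockout array 3, and 3 without WT array 1 or 2. Without double knockout arrays 1 and 3 together, 0 of 39 and 0 of all genes passed, and the median difference was -0.77, from a single array assumed to vary like the other groups. With B and T cell markers as a covariate 0 of 39 and 9 of all genes passed, against 505 of all genes in the reported fit, and the median was -0.77. Among the ingWAT arrays only double knockout arrays 1 and 3 were high in these markers, so this fit too rests largely on array 2. With skeletal muscle markers as the covariate instead, Atp6v1b2, Atp6v0a1, Atp6v0d1, Ctsl and Lamp2 kept their call.

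**Figure D3:**
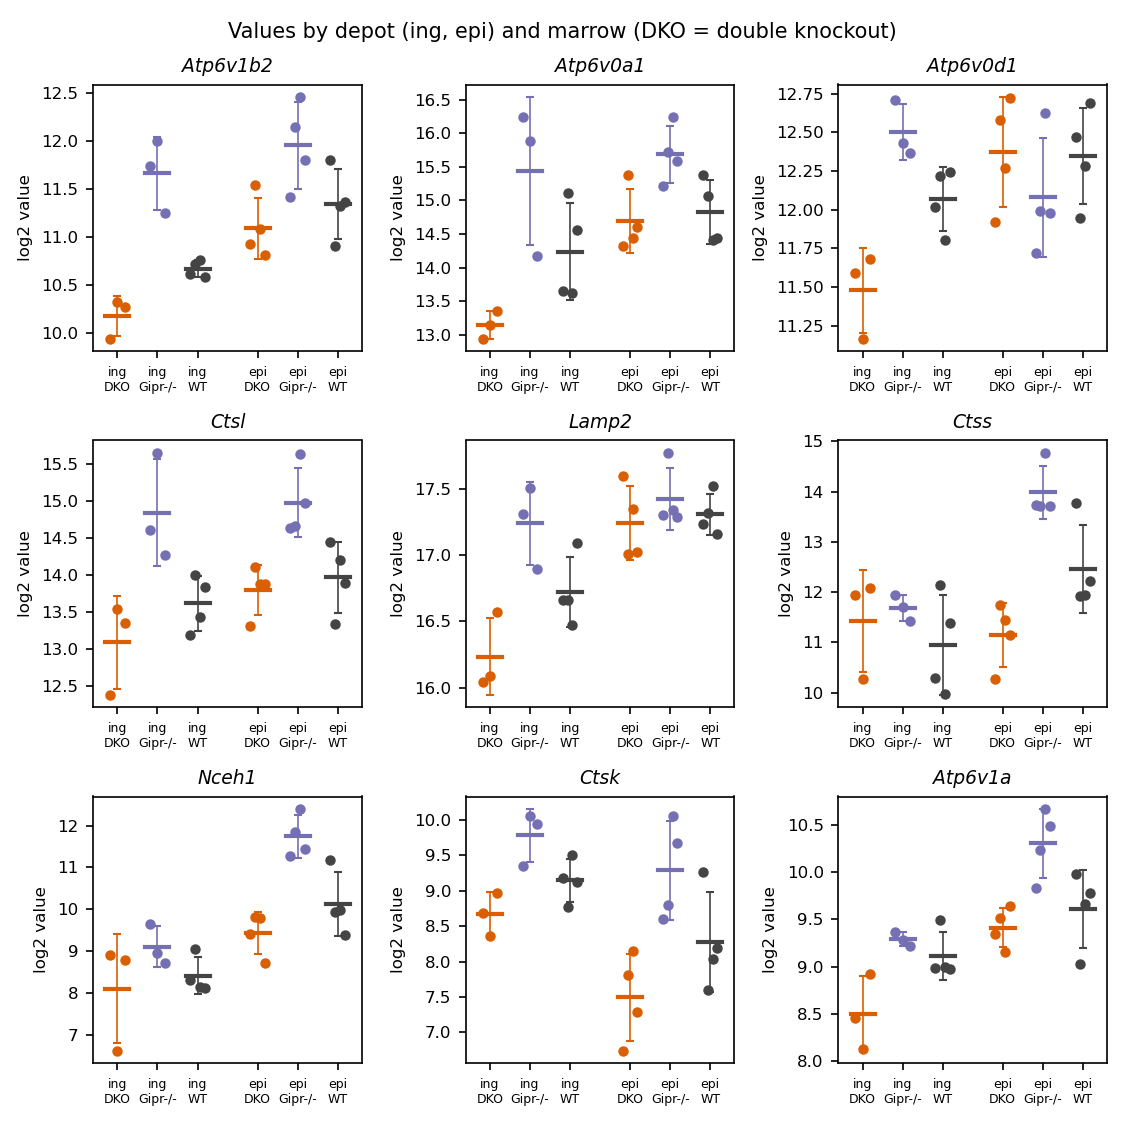
Log2 values of 9 lysosomal genes in each array, by depot (ing, epi) and marrow, with the mean (horizontal line) and SD (vertical bar) of each group. In ingWAT the double knockout arrays of Atp6v1b2, Atp6v0a1 and Atp6v0d1 lie below all other ingWAT arrays, and in epiWAT the Gipr-/- arrays of Ctss and Nceh1 lie above all double knockout arrays there.

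In epiWAT the same comparison gave 0 calls among the 39 genes and 0 among all 14503 (limma; 0% of all genes), while 12 of the 39 were lower and 2 higher at an unadjusted p under 0.05, against 5.45% and 5.27% of all genes. The median over the 39 was -0.36, with 28 lower (50.3% of all genes), against a median of -0.0037 over all genes. For 7 genes every double knockout array was under every Gipr-/- array (background 2.91%), and for 1, Atp6v0e, above them (3.14%). The genes with the smallest p were the cathepsin Ctss, the cholesterol ester hydrolase Nceh1, an enzyme of the endoplasmic reticulum rather than the lysosome that releases stored cholesterol in macrophages, and the pump subunit Atp6v1c1.

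Ctss in epiWAT had 10.27, 11.73, 11.46 and 11.14 in double knockout arrays, 13.73, 13.72, 14.77 and 13.71 in Gipr-/- arrays, and 13.77, 11.92, 11.94 and 12.23 in WT arrays. All Gipr-/- arrays were above all double knockout arrays, and WT array 1 reached the Gipr-/- range. The difference of -2.84 ± 0.45 had an adjusted p of 0.143, which no gene in this comparison went below. Nceh1 in epiWAT had 9.41, 9.82, 9.79 and 8.73 in double knockout arrays, 11.28, 11.84, 12.40 and 11.44 in Gipr-/- arrays, and 11.19, 9.93, 9.98 and 9.40 in WT arrays. Here too the Gipr-/- group stood above both others, although WT array 1 came close to its lowest array. The difference of -2.30 ± 0.39 had an adjusted p of 0.179. Atp6v1c1 in epiWAT had 10.10, 10.46, 10.49 and 10.73 in double knockout arrays, 11.20, 11.33, 11.81 and 11.14 in Gipr-/- arrays, and 10.98, 10.40, 11.13 and 10.64 in WT arrays, with all Gipr-/- arrays above the others and a difference of -0.93 ± 0.23 (adjusted p 0.227).

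The other genes with no overlap in epiWAT were Ctsk, Ctsl, Atp6v1a and Gla, all lower with double knockout marrow. Ctsk had 6.73, 7.80, 8.15 and 7.28 in double knockout arrays, 8.61, 8.80, 10.06 and 9.68 in Gipr-/- arrays, and 9.27, 7.60, 8.04 and 8.18 in WT arrays, a difference of -1.79 ± 0.44. Ctsl had 13.31, 14.10, 13.88 and 13.88 in double knockout arrays, 14.64, 14.66, 15.64 and 14.97 in Gipr-/- arrays, and 14.45, 13.33, 14.20 and 13.89 in WT arrays, a difference of -1.19 ± 0.30. For Ctsl the Gipr-/- arrays were above all 8 others, whereas for Ctsk they overlapped WT. Atp6v1a had 9.35, 9.51, 9.16 and 9.63 in double knockout arrays, 9.83, 10.23, 10.67 and 10.49 in Gipr-/- arrays, and 9.98, 9.03, 9.66 and 9.78 in WT arrays. Gla had 7.55, 8.12, 7.81 and 7.52 in double knockout arrays, 8.36, 8.40, 9.09 and 8.56 in Gipr-/- arrays, and 8.10, 7.53, 7.76 and 7.22 in WT arrays, with all Gipr-/- arrays above the others. Ctsb had 17.14, 18.68, 18.02 and 18.21 in double knockout arrays, 18.24, 18.71, 18.86 and 18.58 in Gipr-/- arrays, and 18.66, 18.11, 18.57 and 18.60 in WT arrays. For Ctsb the groups overlapped, as they did for Lamp1. Lamp1 had 15.70, 15.39, 15.51 and 15.33 in double knockout arrays, 15.57, 15.06, 15.58 and 15.77 in Gipr-/- arrays, and 15.51, 15.21, 15.41 and 15.44 in WT arrays. Atp6v0a1 in epiWAT had 14.32, 15.38, 14.44 and 14.61 in double knockout arrays, 15.21, 15.72, 16.24 and 15.58 in Gipr-/- arrays, and 15.38, 15.07, 14.41 and 14.45 in WT arrays. Atp6v1b2 had 10.93, 11.54, 11.08 and 10.82 in double knockout arrays, 11.41, 12.14, 12.46 and 11.80 in Gipr-/- arrays, and 11.80, 10.90, 11.32 and 11.36 in WT arrays. For these last 2 the double knockout group was lower than the Gipr-/- group on average, by -1.002 ± 0.31 and -0.86 ± 0.27, with 1 double knockout array inside the Gipr-/- range. Atp6v0d1 had 11.92, 12.58, 12.27 and 12.72 in double knockout arrays, 11.72, 11.99, 12.63 and 11.98 in Gipr-/- arrays, and 12.47, 11.95, 12.28 and 12.69 in WT arrays, with wide overlap and a difference of 0.29 ± 0.25. The 2 genes higher at an unadjusted p under 0.05 were Atp6v0e, at 0.59 ± 0.21, and the sialidase Neu1, at 1.21 ± 0.44.

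Macrophage markers were lower with double knockout marrow by direction here too, 12 of 12, with 0 past the threshold and means of 9.55 to 11.39 with double knockout, 10.80 to 12.10 with Gipr-/- and 10.32 to 11.74 with WT marrow over 12 genes. All 7 lipid-associated macrophage markers were lower by direction, 0 of them past the threshold, with means of 7.97 to 9.48, 10.26 to 11.52 and 8.14 to 10.07 in the double knockout, Gipr-/- and WT groups, with no overlap between double knockout and Gipr-/- marrow. Their part in these differences was not tested.

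The 2 depots were measured on separate arrays, and their differences are set side by side here. Whether both depots came from the same mice is not stated, so the depots cannot be counted as independent. Between double knockout and Gipr-/- marrow, 28 of 39 lysosomal genes (71.8%) were lower in both depots, against 27.7% of the 13872 genes tested in both, 3 were higher in both and 8 went opposite ways. Lower in both at an unadjusted p under 0.05 were 6 genes (15.4%, against 1.13%): Atp6v0a1, Atp6v1a, Atp6v1b2, Ctsk, Ctsl and Gla. The test of the difference between depots gave 0 calls among the 39 (limma; 0.717% of all genes), with 2 higher and 7 lower at an unadjusted p under 0.05 (6.12% and 7.67% of all genes). The smallest p in that test belonged to Atp6v0d1, at -1.32 ± 0.34 (adjusted p 0.0763), Ctsf, at -1.34 ± 0.36 (0.0850), and Atp6v0e, at -1.46 ± 0.42 (0.108), each taken as ingWAT minus epiWAT. For Atp6v0d1 the difference was -1.02 ± 0.23 in ingWAT and 0.29 ± 0.25 in epiWAT. Without epiWAT Gipr-/- array 3 its adjusted p was 0.0427, and without epiWAT double knockout array 1 it was 0.0333. Without ingWAT double knockout array 2 or epiWAT double knockout array 1, 2 of the 39 passed this test, and 1 did without epiWAT Gipr-/- array 3. For Ctss the difference was -0.26 ± 0.57 in ingWAT and -2.84 ± 0.45 in epiWAT.

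**Figure D4:**
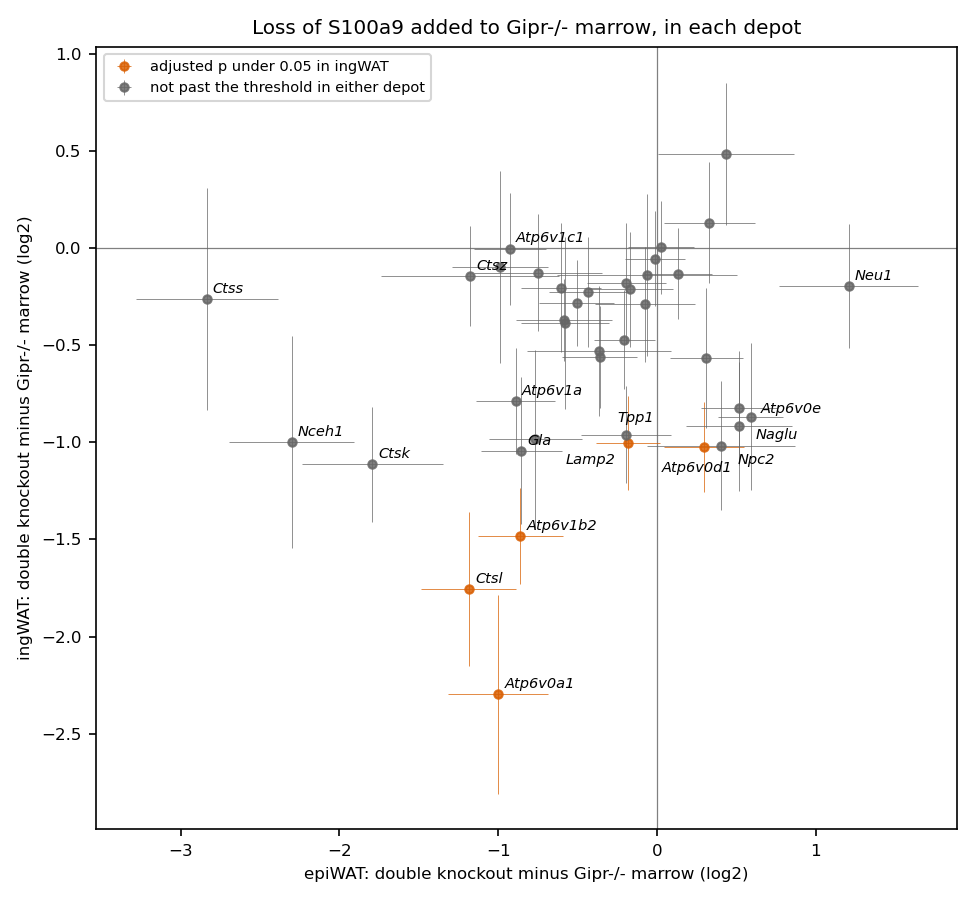
Log2 difference of each lysosomal gene between double knockout and Gipr-/- marrow in epiWAT (horizontal) and ingWAT (vertical), with SE whiskers. Most genes, 28 of 39, lie below 0 on both axes, and the 5 past the threshold in ingWAT are orange.

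Gipr-/- marrow was compared with WT marrow in each depot. These comparisons use the same Gipr-/- arrays as those above, and the values stand side by side without a joint reading. In ingWAT 0 of 39 lysosomal genes passed (limma; 0.234% of all genes), with 8 higher and 0 lower at an unadjusted p under 0.05 (9.94% and 5.1% of all genes), 30 of 39 higher by direction (52.8% of all genes) and a median of 0.30, against 0.03 over all genes. The smallest p belonged to Atp6v1b2, at 0.99 ± 0.23 (adjusted p 0.0784), Ctsl, at 1.23 ± 0.37 (0.149), and Gla, at 1.03 ± 0.35 (0.196). The Gipr-/- arrays lay above all WT arrays for 4 of the 39 genes, a share close to that of all genes (10.2%). These were Atp6v1b2, Ctsl, Atp6v0d1 and Ppt1, the last a thioesterase that removes palmitate from proteins. For Gla, WT array 2 reached into the Gipr-/- range. All 7 lipid-associated macrophage markers (median 0.70) and 8 of 12 macrophage markers (median 0.39) were higher by direction with Gipr-/- marrow, 0 of them past the threshold and 2 of each list at an unadjusted p under 0.05. Their part was not tested.

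In epiWAT 0 of 39 lysosomal genes passed between Gipr-/- and WT marrow (limma; 0% of all genes), with 9 higher and 0 lower at an unadjusted p under 0.05 (3.34% and 3.92% of all genes). By direction 28 of 39 were higher (48.3% of all genes), and the median was 0.12, against -0.02 over all genes. Nceh1 differed by 1.61 ± 0.39, Gla by 0.95 ± 0.26 and Ctss by 1.52 ± 0.45, with adjusted p between 0.404 and 0.554. The Gipr-/- arrays were above all WT arrays for Nceh1, Gla, Ctsl and Atp6v1c1 (4 of 39, background 2.29%). Beside these, 7 of 7 lipid-associated macrophage markers were higher (median 1.52), 6 of them at an unadjusted p under 0.05 and 4 with no overlap, and 9 of 12 macrophage markers (median 0.40), 0 of them at that level. None of either list passed after adjustment (limma), and their part was not tested. Across the depots, 21 of 39 were higher in both with Gipr-/- marrow (53.8%, against 29% of all genes), and Atp6v0a1, Atp6v1b2, Ctsk, Ctsl and Gla were higher in both at an unadjusted p under 0.05 (12.8%, against 0.634%). The depot test gave 0 calls (limma, 0% of all genes). At an unadjusted p under 0.05 there were 3 of 39, a share close to that of all genes (7.95%). They were Ctsc at 1.10 ± 0.43, Ctsf at 0.84 ± 0.35 and Atp6v0d1 at 0.70 ± 0.33.

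Double knockout marrow was also compared with WT marrow. In ingWAT 0 of 39 lysosomal genes passed (limma; 0% of all genes), with 5 lower and 0 higher at an unadjusted p under 0.05 (6.43% and 7.07% of all genes) and a median of -0.29, against -0.01 over all genes. The smallest p belonged to Atp6v0d1 at -0.59 ± 0.22, Tpp1 at -0.63 ± 0.23 and Atp6v1a at -0.61 ± 0.26, with adjusted p from 0.257 to 0.333. For these 3, and for Atp6v0a1 and Atp6v1b2, every double knockout array was below every WT array (5 genes, background 5.91%). Without ingWAT double knockout arrays 1 and 3 the median was -0.49.

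In epiWAT 0 of 39 passed between double knockout and WT marrow (limma; 0% of all genes), with 2 lower and 1 higher at an unadjusted p under 0.05 (1.62% and 1.44% of all genes). Ctss differed by -1.31 ± 0.45, the only 1 of the 39 with all double knockout arrays below all WT arrays (background 1.27%). Atp6v0b in epiWAT had 7.87, 8.40, 7.12 and 7.29 in double knockout arrays, 8.74, 8.98, 8.27 and 8.63 in Gipr-/- arrays, and 8.62, 8.0, 8.79 and 8.61 in WT arrays, a difference of -0.84 ± 0.30. Its double knockout array 2 lay within the WT range. Atp6v0e in epiWAT had 12.42, 11.67, 11.62 and 11.86 in double knockout arrays, 11.18, 11.44, 11.26 and 11.34 in Gipr-/- arrays, and 11.05, 11.55, 11.55 and 11.32 in WT arrays, a difference of 0.53 ± 0.21. Here the double knockout arrays were above all Gipr-/- and WT arrays, again the only such gene of the 39 (background 1.05% against WT). Double knockout array 1, the highest for Atp6v0e, was also the array with high epididymis markers, whose part was not tested. The adjusted p was 0.999 for all 3 genes. The depot test gave 0 calls (limma; 0% of all genes) and 1 at an unadjusted p under 0.05 (8.54% of all genes), with Ctss at 1.80 ± 0.74, Ctsc at 0.89 ± 0.43 and Atp6v0d1 at -0.62 ± 0.33 having the smallest p, the first of them past that level.

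The depots themselves differed in lysosomal genes, and each called gene was lower in ingWAT than in epiWAT. With double knockout marrow 7 of 39 passed (17.9%, against 3.92% of all genes), all lower (2.21% of all genes were called lower), and the median was -0.60, against -0.02 over all genes. With Gipr-/- marrow 1 passed (2.56%, against 0.614% in either direction and 0.255% lower), with a median of -0.32, against 0.02. That gene was Nceh1, whose enzyme is not lysosomal. With WT marrow 2 passed (5.13%, against 1.96% in either direction and 0.931% lower), with a median of -0.42, against -0.07. By direction 33, 33 and 36 of 39 were lower in ingWAT with double knockout, Gipr-/- and WT marrow, against 51.2%, 48.6% and 55.9% of all genes. The same 22 arrays and 1 shared spread enter the 3 contrasts, each with its own 2 groups.

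With double knockout marrow the 7 genes were Npc2 (-2.17 ± 0.44), Naglu (-1.60 ± 0.34), Atp6v0e (-1.15 ± 0.30), Lamp2 (-1.01 ± 0.22), Atp6v1a (-0.91 ± 0.25), Atp6v0d1 (-0.90 ± 0.24) and Atp6v1f (-0.73 ± 0.20), the last a subunit of the rotor shaft. Their adjusted p ran from 0.0122 for Npc2 to 0.0487 for Atp6v1a. Npc2 in epiWAT had 14.94, 12.90, 13.74 and 12.75 in double knockout arrays, 13.12, 12.89, 13.32 and 13.41 in Gipr-/- arrays, and 13.30, 14.17, 12.47 and 12.90 in WT arrays. Naglu in epiWAT had 9.26, 9.02, 9.22 and 8.49 in double knockout arrays, 8.43, 7.98, 8.55 and 8.96 in Gipr-/- arrays, and 9.44, 8.26, 9.37 and 8.31 in WT arrays. Lamp2 in epiWAT had 17.59, 17.01, 17.34 and 17.02 in double knockout arrays, 17.30, 17.77, 17.34 and 17.28 in Gipr-/- arrays, and 17.23, 17.31, 17.52 and 17.16 in WT arrays. For these 3, every double knockout ingWAT array was below every double knockout epiWAT array. Npc2 was highest in epiWAT double knockout array 1, the array with high epididymis markers, and next in WT array 2, which had raised testis markers. Gipr-/- array 1, the highest in testis markers, had 13.12. Npc2 is known to be secreted in quantity by the epididymis, and the part of that tissue in these values was not tested. Atp6v1f in ingWAT had 9.63, 9.42 and 9.65 in double knockout arrays, 9.47, 9.45 and 9.77 in Gipr-/- arrays, and 9.59, 9.94, 10.12 and 9.85 in WT arrays. In epiWAT it had 10.83, 10.15, 10.22 and 10.01 in double knockout arrays, 10.53, 10.12, 10.28 and 10.18 in Gipr-/- arrays, and 10.04, 10.07, 10.40 and 10.19 in WT arrays, with all double knockout arrays of ingWAT below those of epiWAT. Like Npc2, Atp6v0e (12.42) and Atp6v1f (10.83) were highest in epiWAT double knockout array 1. Without the epiWAT arrays high in testis or epididymis genes, these 2 lost their call (limma, adjusted p 0.0872 and 0.105). Npc2 kept its call there.

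With Gipr-/- marrow Nceh1 fell by 2.63 ± 0.49 in ingWAT relative to epiWAT (adjusted p 0.0251). Nceh1 in ingWAT had 8.92, 6.62 and 8.80 in double knockout arrays, 9.65, 8.97 and 8.72 in Gipr-/- arrays, and 8.32, 9.07, 8.16 and 8.13 in WT arrays. Every Gipr-/- array of ingWAT was lower than every Gipr-/- array of epiWAT. Ctss (-2.30 ± 0.55) and Atp6v1a (-1.01 ± 0.25) came next and did not pass (adjusted p 0.0600 and 0.0717). With WT marrow Ctsc, the dipeptidyl peptidase that activates granule proteases, fell by 1.80 ± 0.30 (adjusted p 0.00558). Ctsc in ingWAT had 13.94, 14.52 and 14.30 in double knockout arrays, 14.85, 14.35 and 14.42 in Gipr-/- arrays, and 13.38, 14.41, 13.42 and 13.95 in WT arrays. In epiWAT Ctsc had 14.46, 15.24, 15.28 and 15.67 in double knockout arrays, 14.65, 15.09, 15.95 and 15.25 in Gipr-/- arrays, and 15.53, 15.21, 15.72 and 15.90 in WT arrays. Its WT arrays did not overlap between depots. Ctsh, an aminopeptidase cathepsin, fell by 2.19 ± 0.51 (adjusted p 0.0299). Ctsh in ingWAT had 11.76, 10.58 and 11.93 in double knockout arrays, 12.24, 11.24 and 11.21 in Gipr-/- arrays, and 11.11, 11.91, 10.75 and 11.33 in WT arrays. In epiWAT Ctsh had 14.65, 12.35, 13.69 and 12.03 in double knockout arrays, 13.84, 13.14, 12.66 and 13.33 in Gipr-/- arrays, and 12.94, 14.71, 13.11 and 13.12 in WT arrays. Its highest epiWAT values were in double knockout array 1 and WT array 2, and its WT arrays did not overlap between depots. Nceh1 came next with WT marrow, at -1.71 ± 0.46 (adjusted p 0.0578).

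The cathepsin Ctsk ran the other way by direction, at 1.18 ± 0.40, 0.50 ± 0.40 and 0.87 ± 0.37 with double knockout, Gipr-/- and WT marrow, and did not pass. Ctsf in epiWAT had 8.42, 8.96, 8.84 and 8.96 in double knockout arrays, 8.11, 7.85, 8.80 and 8.34 in Gipr-/- arrays, and 8.92, 8.56, 8.42 and 8.86 in WT arrays, and its ingWAT minus epiWAT difference was -0.72 ± 0.26, 0.62 ± 0.26 and -0.22 ± 0.24 in the same order, with none past the threshold. Tpp1 in epiWAT had 14.46, 15.42, 14.78 and 14.52 in double knockout arrays, 14.28, 15.38, 15.30 and 15.02 in Gipr-/- arrays, and 15.47, 15.07, 14.997 and 14.94 in WT arrays, with differences of -0.81 ± 0.28, -0.05 ± 0.28 and -0.50 ± 0.26 likewise. By direction 6 of 6 mesothelium markers were lower and 8 of 8 skeletal muscle markers higher in ingWAT with each kind of marrow. With double knockout, Gipr-/- and WT marrow, 4, 3 and 5 mesothelium and 1, 0 and 7 muscle markers passed the threshold. Of 12 macrophage markers, 10, 10 and 12 were lower in ingWAT by direction in the same order (medians -0.81, -0.96 and -0.78), and 1 passed, Ptprc, higher with double knockout marrow. Of 7 lipid-associated macrophage markers 5, 6 and 4 were lower, and 1 passed, Trem2, lower with Gipr-/- marrow. With double knockout marrow, 5 of 5 B cell and 4 of 5 T cell markers passed, all higher in ingWAT, and 0 passed with Gipr-/- or WT marrow. The part of these tissues and cells in the differences was not tested. The count of 7 with double knockout marrow was 0 without ingWAT double knockout array 1, 2 without arrays 1 and 3 together, 3 without ingWAT double knockout array 2 or epiWAT double knockout array 3, and 4 without ingWAT Gipr-/- array 2, ingWAT double knockout array 3, epiWAT WT array 3, epiWAT Gipr-/- array 2 or 4, or epiWAT double knockout array 1 or 2. The count of 1 with Gipr-/- marrow was 0 without ingWAT Gipr-/- array 2 or 3 or epiWAT Gipr-/- array 1, 2 or 4, was 2 without ingWAT double knockout array 2 or epiWAT WT array 1, and was 3 without epiWAT double knockout array 1. The count of 2 with WT marrow was 1 without ingWAT WT array 1 or 3 or any 1 epiWAT WT array. With double knockout marrow, 22 fits each left out 1 array. The call stayed in 21 of them for Npc2, Naglu and Lamp2 and in 18 for Atp6v0e. It stayed in 9 for Atp6v0d1, 6 for Atp6v1f and 5 for Atp6v1a.

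**Figure D5:**
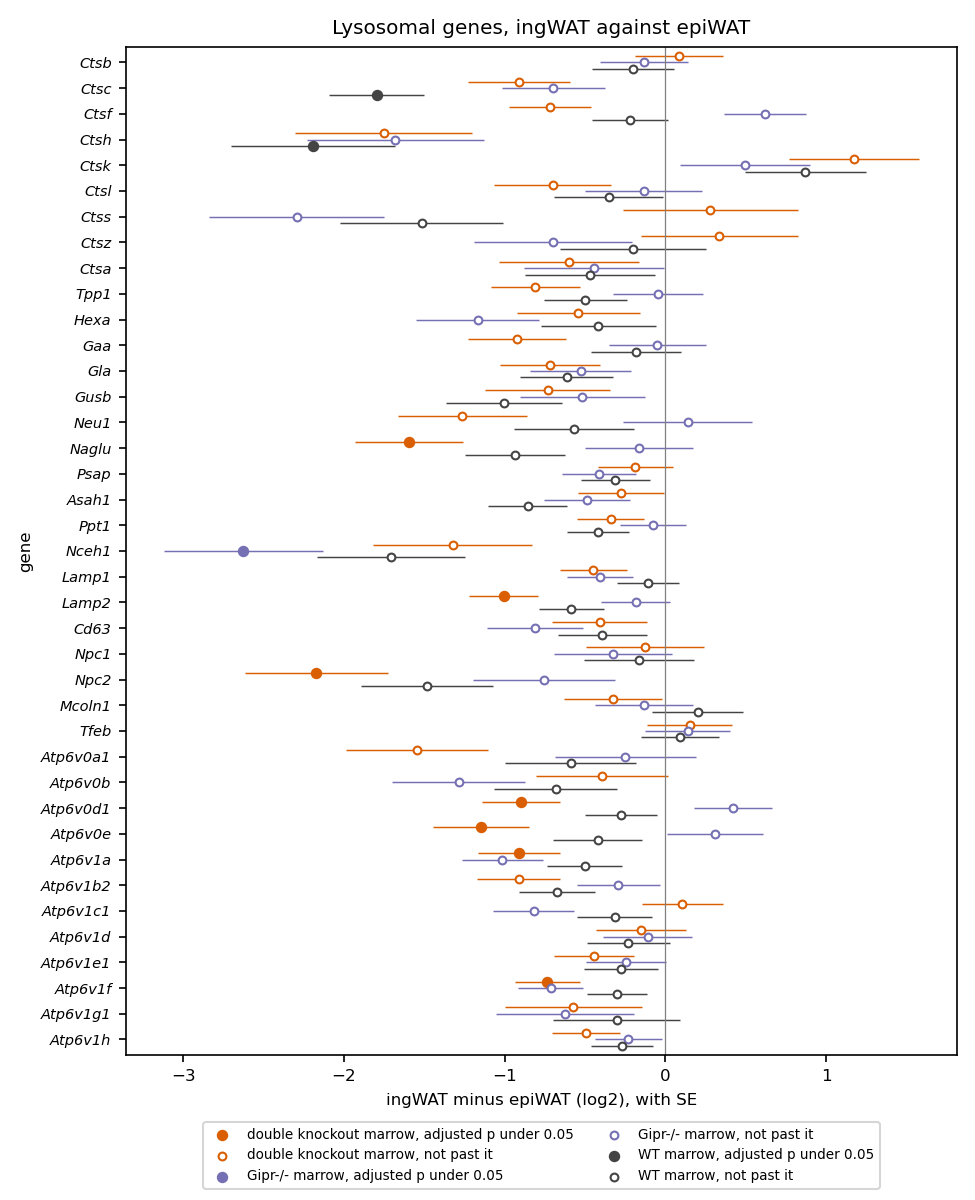
Log2 difference between ingWAT and epiWAT for each lysosomal gene with each kind of marrow, with SE, and filled points where the adjusted p was under 0.05. Most points lie left of 0, Ctsk lies right of it with all 3 kinds of marrow, and the 10 filled points are all on the left.

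The transcription factor Tfeb itself passed the test in no comparison. Tfeb in ingWAT had 6.27, 6.32 and 6.87 in double knockout arrays, 6.38, 6.69 and 6.93 in Gipr-/- arrays, and 6.36, 6.14, 6.53 and 6.88 in WT arrays. In epiWAT Tfeb had 6.09, 6.13, 6.38 and 6.74 in double knockout arrays, 6.75, 6.26, 6.55 and 6.55 in Gipr-/- arrays, and 5.995, 6.14, 6.64 and 6.78 in WT arrays. All 6 groups overlapped, and its difference between double knockout and Gipr-/- marrow was -0.18 ± 0.31 in ingWAT and -0.19 ± 0.25 in epiWAT. In ingWAT the 13 genes with CACGTG in the promoter window had a median difference between double knockout and Gipr-/- marrow of -0.82, with 12 lower. The 18 with an entry and no such match had a median of -0.27, with 17 lower. In epiWAT the medians were -0.01 with the core (7 of 13 lower) and -0.28 without it (14 of 18 lower). These are descriptions of a small set, with no test.

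Genes of the same organelle outside the 39 were read from 7 further lists. In ingWAT, between double knockout and Gipr-/- marrow, 18 of 28 other lysosomal hydrolases tested were lower by direction (52.1% of all genes). Of the 28, 3 were called lower and 0 higher, against 2.65% of all genes called lower and 3.48% in either direction. Smpd1, acid sphingomyelinase, was lower by 1.23 ± 0.25 and Gm2a, the GM2 ganglioside activator, by 1.11 ± 0.25. Lipa, the acid lipase that frees cholesterol and fatty acids, was lower by 1.51 ± 0.31. Of 19 other membrane proteins, 14 were lower by direction, and 4 were called lower and 0 higher. Of these Ostm1, a partner of the lysosomal chloride exchanger, differed by -1.47 ± 0.32, Mfsd8 by -0.97 ± 0.21 and Slc17a5, the sialic acid exporter, by -1.34 ± 0.30, and the metal transporter Slc11a1 by -1.23 ± 0.29. Of 11 other V-ATPase subunits and accessory proteins 8 were lower by direction and 1 was called lower, Atp6v0d2, the d subunit of osteoclasts and some macrophages.

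Atp6v0d2 in ingWAT had 4.44, 4.60 and 5.61 in double knockout arrays, 9.31, 9.74 and 7.67 in Gipr-/- arrays, and 4.45, 8.64, 4.999 and 7.24 in WT arrays. All 3 double knockout arrays were below all Gipr-/- arrays, and the WT arrays were spread between 4.45 and 8.64. The difference was -4.02 ± 0.94, with an adjusted p of 0.0407. The double knockout values lay below the median of every array (6.11 to 6.54), and no detection call was used here, so the size of this difference may be limited by the low end of the arrays' range. In epiWAT it had 8.28, 9.36, 8.53 and 6.13 in double knockout arrays, 11.92, 11.97, 13.81 and 11.59 in Gipr-/- arrays, and 10.93, 8.65, 6.70 and 5.92 in WT arrays, with all Gipr-/- arrays highest. That difference was -4.25 ± 1.01 and did not pass (adjusted p 0.227).

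Of 18 genes for delivery to the lysosome 7 were higher by direction and 1 was called higher (3.48% of all genes were called in either direction). It was Gga3, an adaptor that sorts cargo at the Golgi, at 1.43 ± 0.25 (limma, adjusted p 0.0123). Its difference between depots also passed, at 1.496 ± 0.32 (adjusted p 0.0360). None of 15 MiT/TFE and nutrient-sensing genes, 7 cathepsin inhibitors and 17 autophagy genes passed in this comparison (limma), the smallest p in each list being those of Rragc (-0.80 ± 0.32), Cstb (-0.87 ± 0.39) and Wipi1 (-1.19 ± 0.43). At an unadjusted p under 0.05, 1, 0 and 0 genes of these 3 lists were higher and 3, 1 and 2 lower, against 7.07% and 11.9% of all genes. The median difference was -0.29 over the other hydrolases, -0.46 over the other membrane proteins and -0.47 over the other V-ATPase genes, against -0.38 over the 39 and -0.03 over all genes. In epiWAT the same 3 medians were -0.05, 0.08 and 0.09, and no gene of the 7 lists passed (limma). There, 2 of 28, 1 of 19 and 2 of 12 were higher at an unadjusted p under 0.05 (5.27% of all genes), and 3, 2 and 1 were lower (5.45% of all genes).

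Between depots, Lgmn, the asparagine-specific protease legumain, was lower in ingWAT with all 3 kinds of marrow, at -1.70 ± 0.32, -1.70 ± 0.32 and -1.17 ± 0.30 with double knockout, Gipr-/- and WT marrow. With double knockout marrow 23 of 28 other hydrolases were lower in ingWAT by direction (51.2% of all genes). Of the 28, 3 were called lower, Lgmn, Man2b1 (-2.23 ± 0.47) and Galns (-1.21 ± 0.30), against 2.21% of all genes. The 1 called higher was Ctsw (2.24 ± 0.57), a cathepsin of cytotoxic lymphocytes (3.92% of all genes were called in either direction). The 2 ingWAT double knockout arrays with high T cell markers enter that value, and their part was not tested. Of 12 other V-ATPase genes 10 were lower by direction and 3 were called, Atp6v0e2 (-2.59 ± 0.44), Atp6v0a2 (-1.12 ± 0.25) and Atp6ap2 (-0.68 ± 0.19). Of 19 other membrane proteins 15 were lower by direction and 3 were called, Ostm1 (-1.20 ± 0.28), Tm9sf1 (-1.06 ± 0.27) and Laptm4a (-0.81 ± 0.20). With WT marrow Galns (-1.21 ± 0.28) and the autophagy gene Atg16l1 (-1.19 ± 0.26) were called lower in ingWAT as well (0.931% of all genes).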

How the data were processed

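Whole inguinal and epididymal fat was measured on 22 microarrays in 6 groups of depot and marrow. The deposited values were taken as log2 from their range (1.92 to 19.9) and from array medians of 6.11 to 6.54, and Partek 6.6 is named per the submitters' processing notes. The authors' background correction and normalization are not given in the sources used here. Probe sets were named from the platform annotation: 19341 of 21793 had 1 gene symbol, 2452 are unnamed here, and for 4 genes with 2 probe sets the one with the higher mean was kept. Arrays of 1 group correlated at 0.911 to 0.984 and none were identical.

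Genes in the lowest 25% by mean were left out. Differences were tested with limma 3.58.1 in R 4.3.3 (lmFit, eBayes with a trend), with Benjamini-Hochberg adjustment over all 14503 genes and a threshold of 0.05. Marrow comparisons were fitted within each depot. Depot comparisons, and the test of whether a marrow difference varied with the depot, used all 22 arrays. The fit was tested on simulated data. The number of arrays limits the precision.

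All genes of the list past the threshold in a comparison were named (at most 10 in each direction), with its 3 genes of smallest p added if under 3 had passed. Further lysosomal lists contributed up to 3 genes each, again by p. Values in every array were given for the 3 genes with the smallest p of any comparison and for Lamp1, Ctsb, Ctss, Ctsk, Tfeb, Atp6v0d1 and Atp6v1a. Genes beyond this, among them Neu1, Atp6v1f, Slc11a1 and the macrophage markers, were named after their values were seen. The genes and lists were chosen with earlier results of these data known. Alternatives changed the filter, trend, array weights, scaling, the arrays fitted and single arrays. Leaving out ingWAT double knockout arrays 1 and 3 together, and adding B and T cell or muscle markers as a covariate, were chosen after seeing the data.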

Additional observations from a re-analysis of the deposited data

Results flagged for a closer look

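In groups of 4 arrays, a single array stood far from the rest of its group, by its gap relative to the group's range, for 14 of 156 pairs of lysosomal gene and group. Chance alone marks about 1 in 20 groups. In epiWAT WT array 2, which also had high testis germ cell markers, these were the log2 values of Ctsb (18.11, against 18.57 to 18.66 in the other 3 arrays), Ctsh (14.71, against 12.94 to 13.12 in the other 3 arrays), Hexa (11.19, against 12.42 to 12.56 in the other 3 arrays) and Psap (16.18, against 16.91 to 17.03 in the other 3 arrays). In epiWAT WT array 1 they were those of Ctss (13.77, against 11.92 to 12.23 in the other 3 arrays) and Gusb (10.34, against 9.75 to 9.83 in the other 3 arrays). In epiWAT Gipr-/- array 1, the array with the highest testis germ cell markers, they were those of Cd63 (12.58, against 13.30 to 13.36 in the other 3 arrays), Npc1 (7.29, against 8.10 to 8.19 in the other 3 arrays) and Atp6v1g1 (11.25, against 10.62 to 10.71 in the other 3 arrays). Ctss stood apart in epiWAT Gipr-/- array 3, at 14.77, against 13.71 to 13.73 in the other 3 arrays. Psap stood apart in epiWAT double knockout array 2, at 17.09, against 16.39 to 16.48 in the other 3 arrays. Lamp2 stood apart in epiWAT Gipr-/- array 2, at 17.77, against 17.28 to 17.34 in the other 3 arrays. Atp6v1a stood apart in ingWAT WT array 2, at 9.49, against 8.97 to 9.00 in the other 3 arrays. Atp6v1h stood apart in ingWAT WT array 4, at 11.25, against 10.88 to 10.94 in the other 3 arrays. The part of testis or other tissue in these values was not tested. Without epiWAT WT array 1, the array with high Ctss, 0 genes of the list passed between marrows in epiWAT, as with all arrays.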

How the results depend on the processing

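No result changed direction while past the threshold. Of the counts and medians over the lysosomal genes, 210 values under alternatives other than leaving out 1 array stayed close to the reported one and 24 moved. The cause was not tested for any of them, beyond the fewer arrays that some settings leave. In ingWAT, double knockout against Gipr-/- marrow, 5 genes of the list and 505 of all genes passed. These became 8 and 1797 with array quality weights, 2 and 352 without the trend, and 2 and 370 after quantile normalization. With B and T cell markers as a covariate they were 0 and 9, and the median was -0.77. Without double knockout arrays 1 and 3 the calls there were 0 and the median -0.77, the median against WT marrow was -0.49, and the median depot difference of double knockout against WT marrow was -0.38. Gipr-/- against WT marrow in ingWAT gave 1 call with array weights, where 401 of all genes passed, against 34 in the reported fit. Between depots, the 2 calls with WT marrow (284 of all genes) became 7 with array weights (791) and 1 after quantile normalization (231). The 1 call with Gipr-/- marrow (89 of all genes) became 8 with array weights (623) and 2 without the lowest 50% of genes (89). It became 2 without epiWAT arrays high in testis or epididymis genes (54) and 0 with its 2 groups fitted alone (5). The 7 calls with double knockout marrow (568 of all genes) became 4 with no filter (510) and 4 without the trend (523). They became 3 after quantile normalization (547), 3 with median-centred arrays (429) and 0 with the 2 groups fitted alone (14). For the depot test of double knockout against Gipr-/- marrow, 104 of all genes passed in the reported fit. Array weights gave 3 calls (929 of all genes), and leaving out those epiWAT arrays gave 1 (165). Leaving out 1 array at a time gave 0 to 5 calls for double knockout against Gipr-/- marrow in ingWAT, and 0 to 9, 0 to 3 and 1 to 3 between depots with double knockout, Gipr-/- and WT marrow. It gave 0 to 2 in the depot test of double knockout against Gipr-/- marrow and 0 in the other comparisons. Of single named genes, 51 values under the other alternatives lost their call, 10 gained one and 352 stayed on the same side of the threshold. The depot test of Gipr-/- against WT marrow, with 0 calls, had a median of 0.07 that ran from -0.08 to 0.14 without single arrays. No paired analysis was possible because the labels give the arrays no number shared between groups. Groups of 3 or 4 arrays, an unstated normalization and markers of other tissues that differed between arrays limit these values.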
